A study of Rattus norvegicus with 18 samples.

Results

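Pth1r, Dlx5, Msx2 and Tnfrsf11b are 4 genes by which osteoblasts, the bone-forming cells, are regulated or in turn regulate bone resorption, and their mRNA levels were followed through healing of the rat femur. The 4 genes were chosen with earlier results of these data known. Each probe set annotated to 1 of the 4 symbols was then used, whatever its values. Of the genes on the array these are 4 of 4737 with a probe set annotated to a single symbol. They hold 7 of the 8799 probe sets, 3 for Pth1r, 2 for Dlx5 and 1 each for Msx2 and Tnfrsf11b. Of these, 6 had enough signal to be tested, as did 4669 probe sets in all.

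Pth1r is the receptor for parathyroid hormone and for parathyroid hormone-related protein. It lies on the surface of osteoblasts and of growth plate chondrocytes and signals mainly through cyclic AMP. Dlx5 and Msx2 are homeodomain transcription factors that bind similar DNA, and in cultured mouse bone cells Dlx5 activates and Msx2 represses osteoblast genes such as osteocalcin. Tnfrsf11b encodes osteoprotegerin, a secreted decoy receptor that osteoblasts make and that binds RANK ligand, the signal that osteoclasts need to form.

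All samples came from female Sprague-Dawley rats, which were 52 weeks (older), 26 weeks (adult) or 6 weeks (young) of age when a closed mid-shaft fracture was made in a femur fixed with an intramedullary rod. A mid-shaft segment centred on the fracture, with callus, cortical bone and marrow, was taken 3 days or 1, 2, 4 or 6 weeks after fracture, or from no-fracture sham controls. These controls were all of time 0, with none at the later times. In each difference from no fracture, the fracture therefore cannot be told apart from growth and from time since surgery. RNA of 2 rats was pooled on each of 18 Affymetrix rat genome arrays, with 1 array for each age and time. These are the arrays that the labels call the first series of the study, and the study's other arrays were not analysed here. The 3 ages therefore served as the replicates of a time, and the 5 times after fracture as the replicates of an age. The spread behind the p-values thus mixes differing responses of the ages over time with differences between pools and arrays. Spread between single rats was not measured.

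The signal is the hybridization intensity of a probe set, in arbitrary units, which the authors had brought to the same average, 500, on all arrays. The median probe set had a signal of 137.2 to 182.6 on the 18 arrays, and 37.2% to 43.3% of probe sets lay below 100, the floor set here before taking log2. The ratio of 5' to 3' signal of Gapdh, a measure of RNA integrity, was 0.257 on the array of young rats at 6 weeks and 0.65 to 0.913 on the other 17 arrays. Bone was evident on every array: the summed signal of 11 tested genes of bone matrix and mineral ran between 96486 and 122661 at 3 days, against 29303 to 91532 without fracture. The tissue also held other cells, whose markers moved in both directions. At 3 days the summed signals of 7 erythroid genes (8160 to 19300, against 83205 to 120403 without fracture), 6 neutrophil genes (1375 to 15164, against 44475 to 86996) and 13 skeletal muscle genes (54951 to 85737, against 122942 to 288288) were all lower, with no overlap. Those of 5 cartilage genes (3757 to 6099, against 239 to 2196), 4 smooth muscle genes (6059 to 9600, against 1834 to 3525) and 3 endothelial genes (847 to 1222, against 571 to 817) were higher, again with no overlap. Single markers did not all move with their sums. Smooth muscle Myh11 (170.8 to 225.4, against 212.6 to 265.7) and endothelial Flt1 (321.1 to 364.9, against 239 to 464.6) overlapped with no fracture. So did cartilage Col2a1 (382.6 to 951.9, against 47.8 to 616.5) and Col10a1 (5.4 to 92.8, against 7.6 to 196.7), while Acan, Col11a1 and Comp did not. Bone Bglap (2158.7 to 7421.8, against 4122.4 to 14068.9), Col1a1, Col1a2, Mgp and Omd overlapped too, as did skeletal muscle Myh1 and endothelial Kdr. Endothelial Vwf, too dim to be tested, was lower (21.9 to 31.2, against 49.8 to 88.4). In such whole tissue, a change in the number of cells of a type and a change in mRNA per cell cannot be told apart.

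Pth1r (gene 56813, chromosome 8 from 119572295 to 119597405 in rat build GRCr8) had a higher signal after fracture at every age, on 1 array per time. Over the ages, its log2 fold changes were the largest of the 4 genes up to 2 weeks. The probe set L31394exon_s_at gave signals of 332.5 without fracture and 3291.4, 1351.6, 2265.4, 1224.0 and 1222.4 at 3 days, 1, 2, 4 and 6 weeks in older rats. In adult rats these values were 480.3 without fracture and then 4122.0, 3136.4, 2264.5, 1208.9 and 1849.9. In young rats they were 499.4 without fracture and then 2823.7, 2065.7, 3219.8, 1234.0 and 672.7. Every fractured sample was above all 3 samples without fracture. The signal was highest at 3 days in older and adult rats and at 2 weeks in young rats.

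The second Pth1r probe set, AB012944cds_s_at, followed the same course. It read 151.4 without fracture and 1681.3, 759.1, 1041.6, 1059.7 and 731.2 at the 5 times after fracture in older rats. In adult rats it read 233.1 without fracture and 2526.0, 1480.0, 1047.5, 788.2 and 1200.4 afterwards. In young rats it read 254.8 without fracture and 1907.6, 1287.6, 1751.6, 574.7 and 455.0 afterwards. Here 3 days was the highest time at all 3 ages. The third Pth1r probe set, M77184_i_at, was below 100 on 17 of 18 arrays (25.8 to 101.3) and was not tested.

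**Figure D1:**
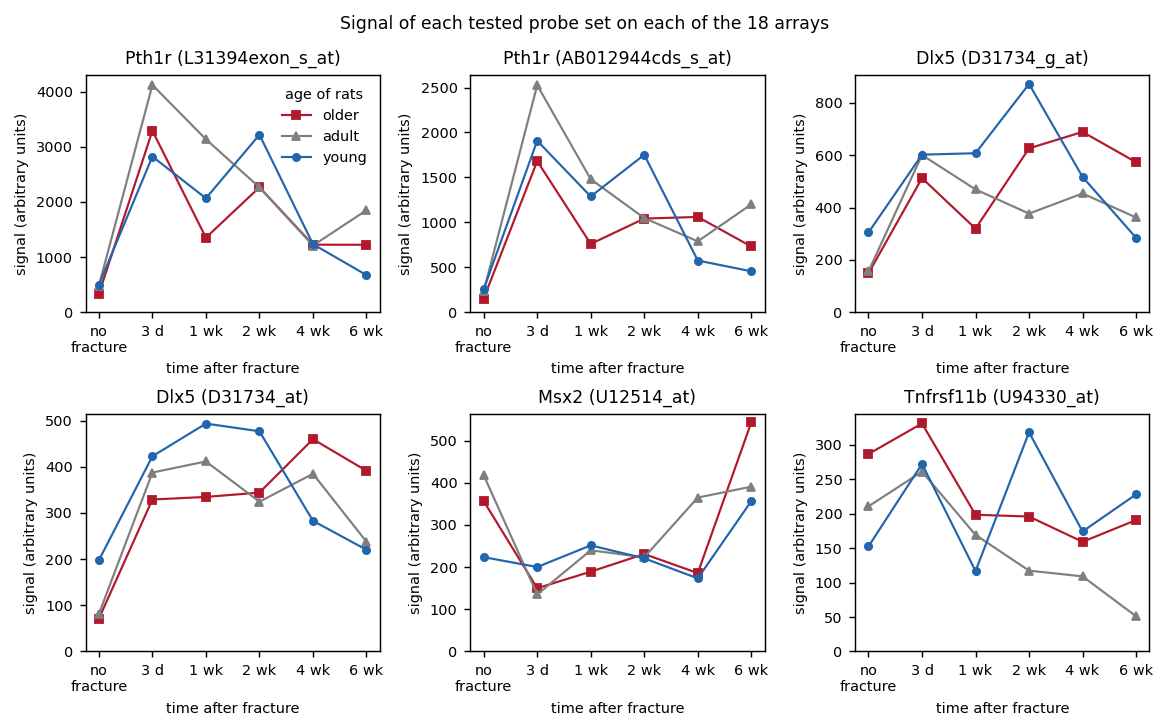
Signal (arbitrary units, linear axis from 0) of the 6 tested probe sets at each time after fracture, with 1 point for each array and 1 line for each age (older red squares, adult grey triangles, young blue circles). Both Pth1r probe sets were above every sample without fracture at each later time, Msx2 dipped at 3 days and stood between 356.4 and 543.0 at 6 weeks, and Tnfrsf11b lay between 51.1 and 331.2.

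Pth1r was up-regulated at all 5 times after fracture. At 3 days L31394exon_s_at averaged 3412 ± 658, against 437.4 ± 91.3 without fracture (SD, n = 3 each), a log2 fold change of 2.97 ± 0.31 (SE; limma, adjusted p = 1.37e-05) or 7.83-fold. The fold change for AB012944cds_s_at at 3 days was 9.66 (log2 3.27 ± 0.35, adjusted p = 1.47e-05). The log2 fold changes of the 2 probe sets were 2.26 and 2.44 at 1 week, 2.56 and 2.58 at 2 weeks, 1.51 and 1.91 at 4 weeks and 1.42 and 1.82 at 6 weeks, with adjusted p between 0.000115 and 0.0195. All 5 comparisons share the 3 no-fracture arrays. The bone matrix sum was also above its no-fracture range at every time. Cartilage markers rose too, with 3 of 5 called up at 3 days and 5 of 5 at 1 and at 2 weeks, where their sum was 10387 to 18392 and 17097 to 24491, against 239 to 2196 without fracture. The part of a changed share of bone or cartilage cells in the Pth1r and Dlx5 values was not tested. In order of mean signal, L31394exon_s_at stood at 3412.4 at 3 days, 2583.2 at 2 weeks, 2184.6 at 1 week, 1248.3 at 6 weeks and 1222.3 at 4 weeks. Neighbours in this order overlapped in their ranges, and only the step down to the no-fracture samples, at 437.4, was free of overlap.

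The 3-day and 1- and 2-week calls of Pth1r held when any single array was left out. The 6-week call of L31394exon_s_at was lost without the adult (log2 1.16, adjusted p = 0.0892) or older (1.26, 0.135) array at 6 weeks and without the adult (1.36, 0.0627) or older (1.3, 0.0562) no-fracture array, and its 4-week call without the older 4-week array (1.39, 0.0644). That of AB012944cds_s_at at 6 weeks was lost without the adult (1.54, 0.0548) or older (1.72, 0.0673) array of that time.

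The 250 bases before the start site that RefSeq gives for Pth1r are shown because this gene had the largest fold changes. They lie on the minus strand at chr8:119595572-119595821 in GRCr8, inside the annotated span of the gene, so they precede the start of 1 of its transcripts. Capitals mark the GC box GGGCGG, searched on both strands, the reverse being CCGCCC.
Pth1r: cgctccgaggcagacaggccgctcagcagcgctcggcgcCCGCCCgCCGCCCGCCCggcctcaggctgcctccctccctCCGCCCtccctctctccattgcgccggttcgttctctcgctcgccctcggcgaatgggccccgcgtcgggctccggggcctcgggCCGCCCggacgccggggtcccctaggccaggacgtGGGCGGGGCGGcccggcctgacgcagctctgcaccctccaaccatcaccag
The window held 7 GC boxes, some overlapping one another, and was 77.6% G and C, against a median of 51.2% over 33469 rat promoter windows of this length. Of those windows 30.5% held a GC box on either strand. Neither the homeodomain core TAATT, the CCAAT box nor the RUNX core ACCACA was found in these letters on either strand. They occurred in 26.2%, 34% and 14.5% of all windows.

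Dlx5 (gene 25431, chromosome 4 from 35965579 to 35969973) also rose after fracture. Both of its probe sets derive from the rat RDLX sequence, which RefSeq lists as a synonym of Dlx5 although the study's own description of the sequence named it Distal-less 3. D31734_g_at gave 148.7 without fracture and 512.5, 319.5, 626.4, 689.2 and 573.4 at 3 days, 1, 2, 4 and 6 weeks in older rats. The adult values were 156.3 without fracture, then 600.8, 469.3, 376.9, 453.9 and 362.0. The young values were 304.7 without fracture, then 602.2, 607.7, 872.4, 517.2 and 284.1. The young sample at 6 weeks was the only fractured sample below its own no-fracture sample. The time of the highest signal was 4 weeks in older, 3 days in adult and 2 weeks in young rats.

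D31734_at was below the floor of 100 in 2 of the 3 no-fracture samples. It read 71.2 without fracture and 329.2, 334.8, 344.2, 459.9 and 391.4 afterwards in older rats. It read 81.4 without fracture and 387.6, 411.7, 324.5, 384.9 and 237.6 afterwards in adult rats. It read 197.7 without fracture and 422.9, 493.7, 477.0, 283.0 and 220.3 afterwards in young rats. All 15 fractured samples were above all 3 samples without fracture. Because the low values were set to 100, its fold changes understate the difference in signal. They depend on the floor. With a floor of 200, its calls in limma at 4 weeks (log2 0.88, adjusted p = 0.0606) and 6 weeks (0.45, 0.362) were lost.

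At 3 days D31734_g_at was 2.97-fold above no fracture (log2 1.57 ± 0.34 SE, adjusted p = 0.00186) and D31734_at 3.01-fold (1.59 ± 0.3, 0.000755). At 1, 2 and 4 weeks both were again up-regulated, by log2 1.23 and 1.7, 1.62 and 1.58, and 1.5 and 1.55, with adjusted p between 0.000837 and 0.015. At 6 weeks D31734_at passed the threshold by a small margin (1.12 ± 0.3, adjusted p = 0.0475) and D31734_g_at did not (1.02 ± 0.34, 0.106). From 3 days to 6 weeks the mean signals of Dlx5 lay between 406.5 and 625.2 for D31734_g_at and between 283.1 and 413.4 for D31734_at, and each time overlapped with the next in order.

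The 6-week call of D31734_at held in 3 of 18 fits that left out 1 array and was lost in the other 15, the adjusted p running from 0.012 to 0.272. With the young 6-week array left out, the array of the low Gapdh ratio, D31734_g_at passed at 6 weeks (log2 1.41, adjusted p = 0.0281). Its 1-week call was lost without the young (1.09, 0.0625) or adult (1.07, 0.0767) array of that time or the older (1.01, 0.0727) or adult (1.17, 0.0502) no-fracture array. Its 4-week call was lost without the older (1.3, 0.11) or adult (1.55, 0.054) array of that time or the older (1.29, 0.0746) or adult (1.44, 0.0574) no-fracture array, and that of D31734_at at 4 weeks without the older array of that time (1.35, 0.0578).

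Msx2 (gene 25483, chromosome 17 from 11102284 to 11107949) took a different course. Its single probe set, U12514_at, comes from a partially processed transcript, by the study's own description. It read 356.5 without fracture and 150.0, 189.2, 231.0, 185.8 and 543.0 at the 5 times after fracture in older rats. It read 418.1 without fracture and 135.1, 239.9, 223.2, 364.9 and 390.7 afterwards in adult rats. It read 223.6 without fracture and 200.2, 251.5, 220.8, 173.3 and 356.4 afterwards in young rats. The 3-day samples were below all 3 no-fracture samples, and the 6-week sample was the highest after fracture at every age, furthest from the rest in older rats.

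At 3 days Msx2 averaged 161.8 ± 34.1, against 332.7 ± 99.4 without fracture (SD, n = 3 each), a log2 fold change of -1.01 ± 0.3 (SE; adjusted p = 0.0126). The call was lost without the adult 3-day array (log2 -0.79, adjusted p = 0.0802) or the adult no-fracture array (-0.86, 0.063). Within ages the 3-day signal was 0.32 times that without fracture in adult, 0.42 times in older and 0.9 times in young rats, where it hardly changed. The log2 differences at 1, 2 and 4 weeks were -0.52, -0.52 and -0.5, and that at 6 weeks was 0.39, none of which passed (adjusted p between 0.226 and 0.5). The 1-, 2- and 4-week means (226.9, 225.0 and 241.3) could not be put in order, since their ranges overlapped. The erythroid, neutrophil and skeletal muscle sums given above were also lower at 3 days, and their part in the Msx2 signal was not tested.

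The 250 bases before the Msx2 start site are shown for comparison with Pth1r, since the 2 genes moved in opposite directions at 3 days. They lie on the plus strand at chr17:11102034-11102283 in GRCr8, directly before the annotated gene. Capitals mark the GC box GGGCGG and the CCAAT box, each searched on both strands, the reverse of the last being ATTGG.
Msx2: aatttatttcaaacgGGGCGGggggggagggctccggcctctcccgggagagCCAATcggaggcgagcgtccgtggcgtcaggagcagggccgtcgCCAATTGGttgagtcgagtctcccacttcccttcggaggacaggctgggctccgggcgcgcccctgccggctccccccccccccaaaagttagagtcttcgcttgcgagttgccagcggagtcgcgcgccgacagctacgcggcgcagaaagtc
The window held 1 GC box and 3 CCAAT box matches, of which a forward and a reverse one overlap, and was 67.6% G and C. TAATT and ACCACA were not found in it on either strand. For Dlx5 and Tnfrsf11b no promoter sequence was used here.

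Tnfrsf11b (gene 25341, chromosome 7 from 87456318 to 87484324) was not called at any time. U94330_at reached 200 on 7 of 18 arrays. It read 286.9 without fracture and 331.2, 198.6, 196.0, 159.3 and 190.9 at 3 days, 1, 2, 4 and 6 weeks in older rats. It read 210.8 without fracture and 261.3, 169.3, 117.4, 109.1 and 51.1 afterwards in adult rats. It read 152.6 without fracture and 272.4, 116.8, 318.4, 174.3 and 228.2 afterwards in young rats. The 3-day sample was above the no-fracture sample at all 3 ages and the 1-week sample below it, but each time overlapped with no fracture across ages. The 3-day (261.3 to 331.2) and 1-week (116.8 to 198.6) samples did not overlap with each other.

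At 3 days Tnfrsf11b averaged 288.3 ± 37.6, against 216.8 ± 67.3 without fracture (SD, n = 3 each), a log2 fold change of 0.45 ± 0.34 (SE; adjusted p = 0.293). The log2 differences at 1, 2, 4 and 6 weeks were -0.41, -0.11, -0.54 and -0.36 (adjusted p between 0.399 and 0.858). None of the 5 differences had an unadjusted p below 0.05 either. In order of mean signal all 6 times overlapped with their neighbours, from 3 days (288.3) at the top to 4 weeks (147.6) at the bottom.

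**Figure D2:**
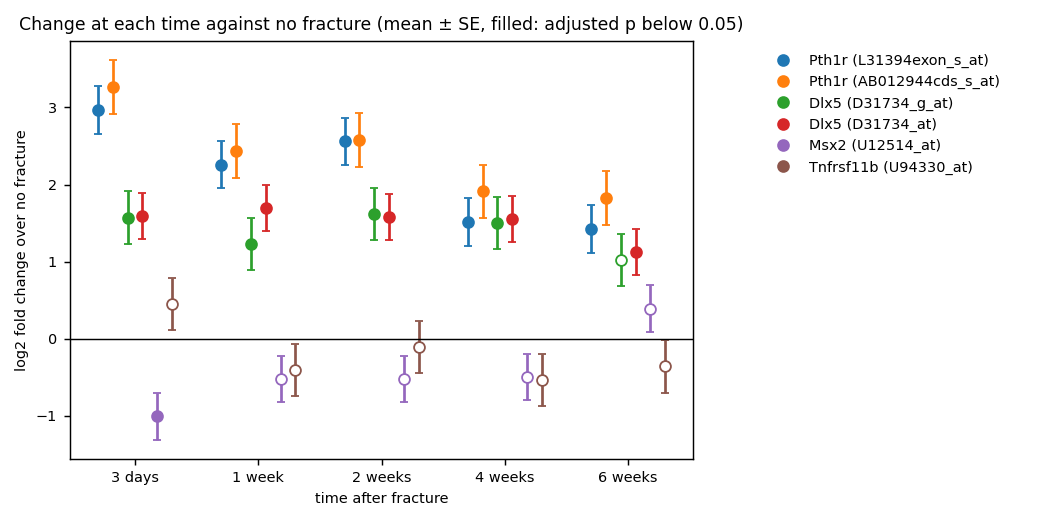
Log2 fold change over no fracture (mean ± SE from the fit of all 18 arrays, n = 3 ages per time) of each tested probe set at the 5 times after fracture; filled points had an adjusted p below 0.05. The 4 Pth1r and Dlx5 probe sets lay above 1 at every time, Msx2 was at -1.01 at 3 days, and no Tnfrsf11b point was filled.

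Counted over the 6 tested probe sets, 4 were called up and 1 down at 3 days, where 24.5% of all tested probe sets were called up and 19.7% down. At 1, 2 and 4 weeks 4 of 6 were called up, against 14.3%, 12.8% and 5.05% of all tested probe sets. At 6 weeks 3 of 6 were called up, against 3.19%. The median log2 fold change of the 6 was 1.58 at 3 days and 1.07 at 6 weeks, with medians of 0.01 and 0.05 over all tested probe sets. The probe sets of a gene are not independent, so these 20 calls come from 3 genes. Since the genes were chosen with earlier results of these data known, these shares are a description and not a test. Of the 20 calls, 12 held whichever single array was left out, and the 2 Pth1r calls at 3 days held under every alternative tried.

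The return of these genes late in healing was examined by setting 6 weeks against 2 weeks. None of the 6 probe sets passed in limma, where 2.29% of all tested probe sets were called in either direction, and 3 had an unadjusted p below 0.05. Pth1r L31394exon_s_at averaged 1248 ± 589 at 6 weeks and 2583 ± 551 at 2 weeks (SD, n = 3 each; log2 -1.15 ± 0.31 SE, adjusted p = 0.0647), lower at 6 weeks at all 3 ages with no overlap. With 1 array left out this difference ran between -1.4 and -0.73 and its adjusted p between 0.0451, without the older no-fracture array, and 0.337. AB012944cds_s_at differed by -0.75 ± 0.35 (adjusted p = 0.251) and was lower in 2 of 3 ages, and ran between -1.04 and -0.36 with 1 array left out. Cartilage markers were also lower at 6 weeks (median log2 difference -2.29, with 1 of 5 called and 4 of 5 at an unadjusted p below 0.05), and their part in the Pth1r difference was not tested. Msx2 averaged 430.0 ± 99.3 at 6 weeks and 225.0 ± 5.33 at 2 weeks, higher at all 3 ages with no overlap (log2 0.91 ± 0.3, adjusted p = 0.111). Here too the neutrophil markers moved, with 4 of 6 called up at 6 weeks against 2 weeks, as did 3 of 7 erythroid markers, and their part in the Msx2 difference was not tested. Dlx5 (log2 -0.6 and -0.46) and Tnfrsf11b (-0.25) differed by less.

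The study asked how the response to fracture depends on age. Over the 5 times after fracture no age comparison called any of the 6 probe sets in limma: 0 of 6 for older against young (0.15% of all tested probe sets), 0 for older against adult (3.73%) and 0 for adult against young (0%). These background counts rested on single arrays. The 7, 174 and 0 probe sets called over all genes became 0 to 457, 0 to 640 and 0 to 23 with 1 array left out, the highest being without the older 3-day array for the first and second and without the adult 3-day array for the last. At an unadjusted p below 0.05 the counts were 0, 1 and 1 of 6, and the two-sample test named in the study's methods also gave 0 calls after Benjamini-Hochberg adjustment. Older rats averaged 1871 ± 906 and young rats 2003 ± 1060 for L31394exon_s_at (SD, n = 5 each; log2 -0.01 ± 0.24 SE), and all 6 older-minus-young differences were between -0.04 and 0.03 on the log2 scale. SEs of 0.21 to 0.27 go with them.

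Tnfrsf11b was lower in adult rats than at the other ages, without passing the test. It averaged 215.2 ± 66.7 in older and 141.6 ± 78.9 in adult rats (SD, n = 5 each), higher in older rats at all 5 times (log2 0.56 ± 0.25, adjusted p = 0.175). Against young rats (222.0 ± 79.4) adult rats were lower by a similar amount, at 4 of 5 times (log2 -0.57 ± 0.25, adjusted p = 0.348). These 2 comparisons share the adult arrays, of which the 6-week one, at 51.1, was set to the floor. They moved with the floor, to 0.07 and -0.18 with a floor of 200 and to 0.75 and -0.76 with a floor of 20. Pth1r L31394exon_s_at averaged 1871 ± 906 in older and 2516 ± 1140 in adult rats (log2 -0.42 ± 0.24, adjusted p = 0.28), a difference of -0.59 with equal array medians.

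Split into early and late healing, the older-minus-young differences of Pth1r and Dlx5 had opposite signs, though none passed the test. At 1 and 2 weeks the log2 differences of both Pth1r and both Dlx5 probe sets were -0.56 ± 0.37, -0.76 ± 0.33, -0.7 ± 0.33 and -0.52 ± 0.26. At 4 and 6 weeks they were 0.42 ± 0.37, 0.78 ± 0.33, 0.71 ± 0.33 and 0.76 ± 0.26. The lowest adjusted p was 0.361 in the early and 0.127 in the late period. In the early period 0 of 6 probe sets were called in limma, where 0.514% of all were, with 1 at an unadjusted p below 0.05. In the late period it was 0 of 6, where 2.81% were, with 2 at an unadjusted p below 0.05. The 24 probe sets called early over all genes became 0 without the older 1-week or 2-week array, 1 to 3 without any one 4- or 6-week array and 151 without the young 2-week array. The 131 called late became 1 without the young or older 6-week array, 317 without the young 2-week and 323 without the young 1-week array, and 23 to 92 without any one of the other 8.

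The samples behind these values were few, with 2 per age and period. AB012944cds_s_at read 759.1 and 1041.6 in older and 1287.6 and 1751.6 in young rats at 1 and 2 weeks, then 1059.7 and 731.2 in older and 574.7 and 455.0 in young rats at 4 and 6 weeks. The 2 ages did not overlap in either period. For D31734_at they did not overlap either, at 334.8 and 344.2 in older and 493.7 and 477.0 in young rats early, and 459.9 and 391.4 in older and 283.0 and 220.3 in young rats late. For L31394exon_s_at they overlapped in both periods, and for D31734_g_at in the early one.

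**Figure D3:**
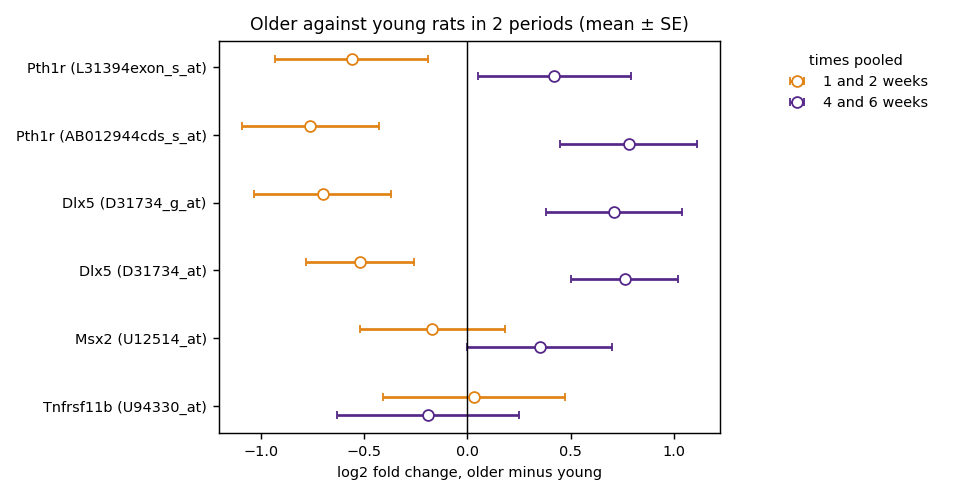
Log2 fold change of older minus young rats (mean ± SE, 2 arrays per age and period, from a fit of the 12 arrays of these times) for each tested probe set at 1 and 2 weeks (orange) and at 4 and 6 weeks (purple). The Pth1r and Dlx5 points lie below 0 early and above 0 late, and none passed the threshold.

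The change of the older-minus-young difference between the periods was tested directly, a comparison chosen after these values were seen. It came to log2 0.98 ± 0.53 and 1.54 ± 0.47 for Pth1r and 1.42 ± 0.46 and 1.28 ± 0.37 for Dlx5 (adjusted p 0.745, 0.388, 0.467 and 0.375). For Msx2 it was 0.53 ± 0.5 and for Tnfrsf11b -0.23 ± 0.62. Limma called 0 of 6 members and 0% of all tested probe sets, though 3 of 6 members and 337 of 4669 had an unadjusted p below 0.05. Cartilage marker sums at 4 and 6 weeks moved with the late difference, at 8456 to 12041 in older, 3458 to 9454 in adult and 1192 to 2683 in young rats. Osteoclast (26600 to 29910 in older and 13999 to 21020 in young rats), smooth muscle (5741 to 6857 and 3150 to 3807) and endothelial sums (1016 to 1130 and 641 to 731) were also higher in older rats in that period. Skeletal muscle (110818 to 132726 in older and 203257 to 234911 in young rats) and neutrophil sums (6601 to 12503 and 30762 to 61393) were lower, all of these without overlap, while the bone matrix sums overlapped (117944 to 127511 in older and 115787 to 123268 in young rats). At 1 and 2 weeks the bone matrix sums did not overlap, at 97962 to 120044 in older and 133511 to 150214 in young rats. Skeletal muscle (87738 to 128695 and 185031 to 210058) and erythroid sums (6657 to 12523 and 22583 to 59329) were also lower in older rats then. Smooth muscle sums (8282 to 11336 and 5124 to 8077) were higher, and the other sums overlapped. The part of these cell markers in either period was not tested, and the young 6-week array is the one of the low Gapdh ratio. With that array left out the late difference was -0.17 (L31394exon_s_at) and 0.6 (AB012944cds_s_at) for Pth1r and 0.43 (D31734_g_at) and 0.82 (D31734_at) for Dlx5.

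Without fracture, older rats had less signal than young rats for Pth1r (332.5 and 499.4 for L31394exon_s_at) and Dlx5 (148.7 and 304.7 for D31734_g_at) and more for Msx2 (356.5 and 223.6) and Tnfrsf11b (286.9 and 152.6), on 1 array each. The departure of the older-minus-young difference after fracture from that without fracture was log2 0.58 and 0.73 for Pth1r, 0.99 and 1.01 for Dlx5, -0.68 for Msx2 and -0.92 for Tnfrsf11b, with SEs of 0.53 to 0.66. For D31734_at, with 2 of 3 no-fracture values under the floor, it was 0.03 with a floor of 200 and 1.5 with a floor of 20, and for AB012944cds_s_at it was 0.32 with a floor of 200. Limma called 0 of 6, with 0 at an unadjusted p below 0.05, where 2.55% of all tested probe sets were called.

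Other genes of the pathways give these values their setting. The lists of such genes were also chosen with earlier results of these data known, so their counts are descriptions. Of 30 listed genes of parathyroid hormone signalling, 15 were tested. At 3 days 4 rose and 2 fell, with Pth1r first, while 24.5% of all tested probe sets rose and 19.7% fell. Pde4b, a cyclic AMP phosphodiesterase, rose by log2 1.81 ± 0.34, Fos, an immediate early transcription factor that the hormone induces in osteoblasts, by 1.48 ± 0.28, and Prkaca, a catalytic subunit of protein kinase A, fell by 1.11 ± 0.28 on the log2 scale (adjusted p 0.000577, 0.000764 and 0.00448). At 4 and 6 weeks Pth1r was the only gene of the 15 that passed, against 5.05% and 3.19% of all tested probe sets called up. The median log2 fold change of the other 14 was -0.15 at 3 days and 0.11 at 6 weeks, near the medians of all tested probe sets (0.01 and 0.05).

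Of 31 listed transcription factors of osteoblasts, 12 were tested. At 3 days 7 rose, and Msx2 alone fell, against the same 24.5% and 19.7% of all tested probe sets. Id3, an inhibitor of helix-loop-helix factors, rose most (log2 1.86 ± 0.29, adjusted p = 0.000159), followed by Prrx1, a homeodomain factor of limb mesenchyme (1.76 ± 0.24, 6.82e-05), Dlx5, and Junb, an AP-1 subunit (1.57 ± 0.23, 9.24e-05). Msx1, the close relative of Msx2, moved in the opposite direction to it. It rose by 1.23 ± 0.36 at 3 days, 1.47 ± 0.36 at 1 week, 1.61 ± 0.36 at 2 weeks and 1.25 ± 0.36 at 4 weeks (adjusted p between 0.00453 and 0.0468). The Msx1 call held in all 18 fits that left out 1 array at 1 and 2 weeks, in 15 of 18 at 3 days and in 6 of 18 at 4 weeks. The counts that rose were 7 of 12 at 1 week, 6 at 2 weeks, 3 at 4 weeks (Dlx5, Id3 and Msx1) and 0 at 6 weeks, against 14.3%, 12.8%, 5.05% and 3.19% of all tested probe sets. That 0 is by limma with the brighter Dlx5 probe set, and 5 of the 12 had an unadjusted p below 0.05.

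**Figure D4:**
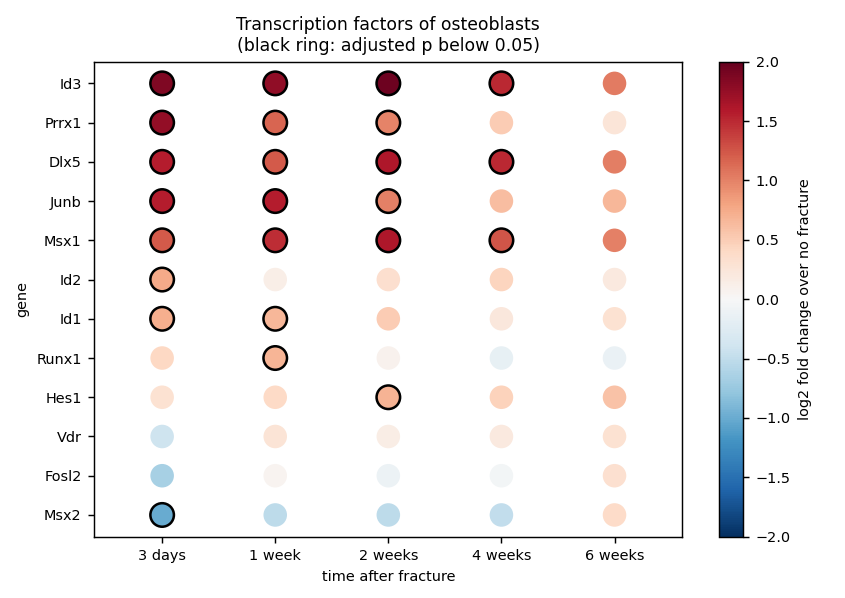
Log2 fold change over no fracture (colour scale, red up and blue down) of the 12 tested transcription factors of osteoblasts, 1 row per gene and 1 column per time after fracture, with the brightest probe set for each gene; a black ring marks an adjusted p below 0.05. Id3, Dlx5 and Msx1 carry a ring from 3 days to 4 weeks, and Msx2 is the only gene with a ring on a blue point.

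Of 16 listed genes around RANK ligand and osteoprotegerin, 7 were tested and 2 rose at 3 days, where 24.5% of all tested probe sets did. They were Ptgs2, the inducible prostaglandin synthase (log2 3.47 ± 0.57, adjusted p = 0.000258), and Il6, an inflammatory cytokine (2.51 ± 0.4, 0.000217). Ptgs2 was also higher in older than in young rats at 1 and 2 weeks (2.82 ± 0.38, adjusted p = 0.0255), a call that held in only 3 of 12 fits that left out 1 array (adjusted p between 0.00589 and 0.409) and was lost with floors of 20 and of 200. In limma no gene of this list passed at 1, 2, 4 or 6 weeks, and 1, 0, 0 and 0 of the 7 had an unadjusted p below 0.05.

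Of 23 listed genes of bone morphogenetic protein signalling, a pathway that induces Dlx5 and Msx2 in mouse cells, 6 were tested. Bmp3 rose at 3 days (log2 1.51 ± 0.26, adjusted p = 0.000371) and 2 weeks (1.36 ± 0.26, 0.00188), and fell by 1.32 ± 0.26 on the log2 scale at 6 weeks against 2 weeks (adjusted p = 0.0142). Acvr1, a type I receptor, rose at 3 days (1.03 ± 0.32, 0.0164). The 2 that rose at 3 days are to be read against 24.5% of all tested probe sets. With 1 array left out, the 3-day Acvr1 call and that of Bmp3 at 6 against 2 weeks each held in 16 of 18 fits. Fst was also called up at 1 and 2 weeks, where 14.3% and 12.8% of all tested probe sets were. These calls held in only 2 and 1 of 9 other settings, and in 13 and 4 of 18 such fits. Acvr1 was called higher in older than in adult rats after fracture, where 3.73% of all were called. That call held in 6 of 15 such fits.

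Of 20 listed genes of bone matrix and mineral, 11 were tested, and 7 rose and 1 fell at 3 days, 8 rose at 1 and at 2 weeks, 6 at 4 weeks and 7 at 6 weeks, against the shares of all tested probe sets given for the transcription factors. Ibsp, bone sialoprotein, rose by log2 3.44 ± 0.38 at 3 days and 2.5 ± 0.38 at 6 weeks (adjusted p 1.6e-05 and 0.00205). The older-minus-young difference of the 11 genes after fracture departed from that without it by a median log2 of 1.69. Over all tested probe sets the median was -0.04. Limma called 4 of the 11 up (Col1a1, Col1a2, Sparc and Mgp) and 0 down, where 2.55% of all were called. These calls held in all 15 fits that left out 1 fractured array, but rest on 1 no-fracture array per age. Bglap, osteocalcin, fell at 3 days by 0.98 ± 0.34 on the log2 scale (adjusted p = 0.027), when Msx2 was also at its lowest in adult and older rats. At 3 days Bglap kept its call in 6 of 10 other settings and in 15 of 18 fits that left out 1 array. It was lower in older than in young rats at 1 and 2 weeks (-1.65 ± 0.26, adjusted p = 0.035), which held in 3 of 12 such fits (adjusted p between 0.0276 and 0.552) and was lost with a floor of 200.

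The pattern over the 18 arrays was compared with that of every other tested probe set of a single gene by Pearson's correlation of log2 signals, given as a description. The points share their arrays and the large step between fractured and unfractured samples. Pth1r was most like Alpl, the tissue-nonspecific alkaline phosphatase of osteoblasts, for AB012944cds_s_at (r = 0.96), and Krtcap2 (0.95) and Alpl (0.94) for L31394exon_s_at. Timp1, an inhibitor of matrix metalloproteinases, stood at 0.93 with AB012944cds_s_at. Dlx5 was most like Id3 (0.96 for D31734_at and 0.91 for D31734_g_at), followed by Ibsp (0.93 and 0.91), and Spp1, osteopontin, was also among the 5 nearest of both (0.93 and 0.9). For Msx2 the nearest were Syngr1 (0.9) and Npr1 (0.86), and for Tnfrsf11b Rpl27 (0.88) and Txnl1 (0.85).

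Among the members, the probe sets of Pth1r correlated at 0.97 and those of Dlx5 at 0.93. Pth1r with Dlx5 gave 0.79 to 0.85. Msx2 gave -0.55 to -0.43 with Pth1r and Dlx5 and a weaker -0.29 with Tnfrsf11b. Tnfrsf11b was near 0 with Pth1r (0.07 and 0.03) and Dlx5 (0.0 and -0.13).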

How the data were processed

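Affymetrix rat genome arrays, 1 for each of 3 ages and 6 times, were examined, labelled as the first series of the study. The deposited values were signal intensities that the authors computed with Affymetrix Microarray Suite 5.0 from perfect-match and mismatch probes and scaled to an average of 500 per array. RNA of 2 rats was pooled per array.

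Probe sets were named from the platform annotation (7018 with 1 symbol, 308 with several, 1473 with none), and 6994 symbols were updated by gene ID. The 4 genes and all gene lists were chosen with earlier results of these data known. Signals were floored at 100 and taken to log2. Non-control probe sets (59 controls) with a signal of 200 on at least 3 arrays were tested, 4669 of 8799. limma 3.58.1 (R 4.3.3; lmFit and eBayes with trend) gave two-sided tests, Benjamini-Hochberg adjusted over these, with a threshold of 0.05. Times were compared over all 18 arrays with age as a term, ages over the 15 fractured arrays with time as a term, the 2 periods over 12 arrays, and the departure from no fracture over 18. For a gene with several probe sets, lists used the brightest. List genes were named from the called genes, up to 4 per list and comparison, ranked by absolute log2 fold change. Not all of these are named. Genes of like pattern were named from the 5 most correlated probe sets. Msx1 and Bglap at 3 days were added after their values were seen. The fit was tested on simulated data. Precision is limited by the number of arrays, since each age and time had 1.

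Alternatives were the floor, the filter, quantile normalization, equal array medians, robust moderation, other model terms, only the arrays compared, the two-sample test of the study's methods and leaving out each array. Promoter sequences are from RefSeq (GRCr8), where 2 of the 4 genes matched. Figures were drawn with matplotlib 3.10.9.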

Additional observations from a re-analysis of the deposited data

Results flagged for a closer look

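In 24 groups of 5 arrays (the times after fracture of 1 age, for 7 member probe sets and the Gapdh ratio), the sample at either end was compared with the rest, and 3 stood apart by Dixon's criterion of 0.71. Chance flags about 1 in 20 groups of 5 like samples. The 5 samples here were of different times after fracture, so that rate need not hold, and a change over time can also be flagged. Msx2 in older rats at 6 weeks had a signal of 543.0, with the other 4 times between 150.0 and 231.0. Tnfrsf11b in older rats at 3 days had a signal of 331.2, with the others between 159.3 and 198.6. The Gapdh 5' to 3' ratio of young rats at 6 weeks was 0.257, with the others between 0.731 and 0.802.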

How the results depend on the processing

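The count of 20 member calls over the 5 times against no fracture was within 1.5 times under every alternative but 2. It was 12 when only the 6 arrays of the 2 times compared entered each fit, which leaves fewer samples, and 2 with the two-sample test of the study's methods, and it ran between 15 and 21 when 1 array was left out. The count for 6 weeks against 2 weeks, 0 as reported, was 0 to 1 with 1 array left out. The counts for the age comparisons, the 2 periods, the departure from no fracture and the change between periods were 0 under all alternatives run.

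No called value changed sign. Among values that did not pass, older minus young after fracture for Dlx5 D31734_at was -0.05 with quantile normalization, -0.1 with equal array medians and -0.14 with all 18 arrays, and older minus adult -0.01 and -0.06 under the first 2. For Msx2 older minus young was 0.07 with a floor of 200 and 0.1 with all 18 arrays, and for Tnfrsf11b 0.15 with all 18 arrays. Tnfrsf11b at 2 weeks against no fracture was 0.02 with a floor of 200, its older-minus-young difference at 1 and 2 weeks -0.34 (floor of 200), -0.05 (quantile) and -0.09 (equal medians), and its change between periods 0.24 (floor of 200). The cause was not tested.

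With 1 array left out, older minus young after fracture ran between -0.25 and 0.17 (L31394exon_s_at), -0.25 and 0.2 (AB012944cds_s_at), -0.25 and 0.17 (D31734_g_at), -0.15 and 0.15 (D31734_at), -0.16 and 0.13 (Msx2) and -0.24 and 0.19 (Tnfrsf11b). Older minus adult ran between -0.07 and 0.23 (D31734_at) and -0.28 and 0.1 (Msx2), and adult minus young between -0.23 and 0.04 and between -0.11 and 0.25 for the same 2. Older minus young at 4 and 6 weeks ran between -0.17 and 1.02 (L31394exon_s_at) and -0.13 and 0.84 (Msx2), and at 1 and 2 weeks between -0.39 and 0.04 (Msx2) and -0.83 and 0.89 (Tnfrsf11b). For Tnfrsf11b, 2 weeks against no fracture ran between -0.49 and 0.14, 6 weeks against 2 weeks between -0.5 and 0.13, and the change between periods between -1.09 and 0.63. Over all single values, 1794 alternatives kept direction and side of the threshold, 58 reversed sign, 69 lost and 2 gained a call. No paired analysis by replicate number was possible because each age and time had 1 array, so times were compared within ages through the age term and ages within times through the time term.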
